A study of Oryza sativa with 12 samples.

Results

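The male-fertile florets of TGMS-Co27 at low temperature (Co27LT) were compared with wild-type florets collected under the same conditions (H1493LT), on 6 of the 12 arrays of the series. H1493 is the wild-type japonica rice Hejiang 19. TGMS-Co27 is 1 transgenic line made in H1493, in which over-expression of a Ugp1-derived construct holding a Ubi1 intron cosuppressed the endogenous Ugp1. The line is male sterile at high temperature and fertile at low temperature, so both groups compared here came from fertile plants. Each group held 3 biological replicates of florets taken around meiosis, from winter plants at Lingshui with a daily average of 20 °C. The other 6 arrays held the same lines, sterile TGMS-Co27 (Co27HT) and fertile wild type (H1493HT), from summer plants at Wuhan with a daily average of 28 °C, where temperature, season, day length and site cannot be told apart. Within the low-temperature comparison these conditions were shared, and the effect of Ugp1 suppression cannot be told apart from that of the inserted construct and its position in this 1 line. A floret holds many cell types, and in such bulk samples fewer cells of a type and less RNA per cell cannot be told apart.

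Ugp1 encodes UDP-glucose pyrophosphorylase, which makes the UDP-glucose used for sucrose, cell wall polysaccharides and callose, the glucan that surrounds meiotic pollen mother cells. Callose is laid down before meiosis and dissolved after it, and loss of Ugp1 function in rice disturbs it and causes male sterility. Cold during this stage is a classical cause of pollen failure in rice, and the plant answers cold through DREB1 (CBF) transcription factors, calcium-decoding proteins, trehalose phosphate metabolism and jasmonate signalling. The comparison of the fertile transgenic line with wild type at low temperature asks which transcripts still differed after fertility had been restored.

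Transcript levels were read as log2 signals of the deposited arrays, on which a difference of 1 is a 2-fold change. A probe set was called when its Benjamini-Hochberg adjusted p from limma over 57258 probe sets was below 0.05, its difference was at least 1 in size, and its mean log2 signal over the 12 arrays was at least 6, the limit used for a bright probe set. The arrays of a group resembled one another more than those of the other line. Pearson's r over probe sets was 0.989 to 0.990 within H1493LT, 0.988 to 0.989 within Co27LT and 0.976 to 0.978 between them. The array also carries 64 probe sets whose identifiers begin with RPTR, and 2 of them were called. RPTR-Os-K01193-1_at stood at 8.19, 8.48 and 8.15 in H1493LT, 14.42, 14.29 and 14.34 in Co27LT, 3.31, 3.88 and 0.40 in H1493HT, and 14.08, 14.13 and 14.18 in Co27HT. All transgenic arrays were high, and the wild-type arrays at low temperature stood above those at high temperature without overlap. On the linear scale the H1493LT mean was 1.49% of the Co27LT mean, against 0.0482% for the high-temperature pair. Its part in the differences below was not tested.

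The probe set of Ugp1 remained lower in the fertile florets. Its log2 signals were 13.62, 13.64 and 13.57 in H1493LT and 12.91, 12.89 and 12.86 in Co27LT. The wild-type arrays were all above the transgenic ones, and the lines differed by -0.72 (SE 0.07, limma adjusted p = 0.0015). At high temperature the same probe set differed by -2.01, and the change of the line difference between temperatures was 1.29 (adjusted p = 0.0011). Whether it reads RNA of the endogenous gene, of the construct or of both is not given. In the study's qRT-PCR, endogenous Ugp1 RNA was strongly reduced in TGMS-Co27 at both temperatures, while total Ugp1 RNA was higher at low temperature. The values here therefore do not show a change in the endogenous gene alone. UGP2, the paralogue on chromosome 2, was near the bright limit with 5.97, 6.26 and 6.72 in H1493LT and 5.52, 6.39 and 5.77 in Co27LT, and the 2 groups overlapped (difference -0.43, adjusted p = 0.72). Of 24 bright genes of UDP-glucose, sucrose and callose metabolism, a group that did not hold Ugp1 itself, 1 fell and none rose. Over all bright genes 1.81% were lower, and a count of 1 cannot be set apart from that share. The gene was SUT5, a sucrose transporter (-0.63, adjusted p = 0.037). Its adjusted p rose above 0.05, up to 0.13, on leaving out 5 of the 6 low-temperature arrays in turn. The sucrose synthase genes SUS1 and Sus2 differed by -0.05 and -0.03 and did not pass the test.

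Of 24891 bright probe sets, 300 were called (1.21%). Higher signals in Co27LT were found for 193 (0.775%) and lower signals for 107 (0.430%). No called probe set had overlapping groups, which the call rule largely brings about by itself, so it is no separate support for the calls. The higher ones had a median difference of 1.51 and reached 8.79, and the lower ones a median of -1.35 and reached -4.50. Differences of at least 2 in size numbered 52 among the higher and 13 among the lower, and those of at least 4 numbered 16 and 1, so the strongest differences were mostly increases. A single annotated gene was attached to 211 of the 300. With genes counted once, by the probe set of highest mean signal, 292 of 14582 bright genes were higher by adjusted p alone (2.0%) and 264 were lower (1.81%), 3.81% together, which is the background for the gene groups below, and the median difference over all bright genes was -0.01.

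**Figure D1:**
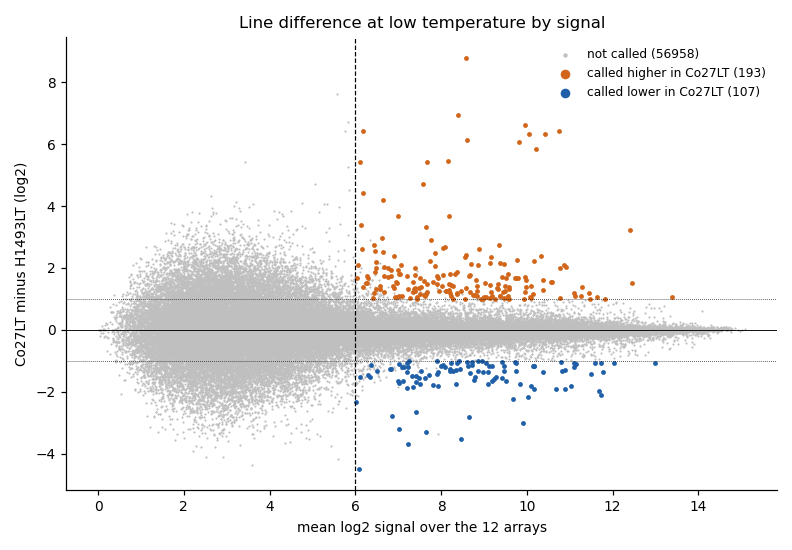
Log2 difference Co27LT minus H1493LT (y axis) against the mean log2 signal over the 12 arrays (x axis) for all 57258 probe sets, with called ones in orange (higher) and blue (lower), a dashed line at the bright limit of 6 and dotted lines at differences of 1 and -1. The 193 higher probe sets extend to 8.79, while the 107 lower ones extend to -4.50 and lie mostly between -1 and -2.

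The largest differences among bright probe sets were also seen at high temperature. The bright limit is a mean over all 12 arrays, so a probe set near background in wild type passes more readily if it is also high in Co27HT. DREB1G, which differed by 5.26 at low and -0.16 at high temperature, had a mean of 5.83 and was left out. The recurrence is therefore partly brought about by the limit and is no separate support. Among the 193 called higher at low temperature, 31 were also called higher at high temperature (16.1% of these and 60.8% of those called higher at high temperature), 12 were lower at both (11.2% and 8.28%), and 4 were called in opposite directions. Differences of at least 4 at both temperatures were seen for 14 probe sets, the 2 RPTR probe sets included. By adjusted p, H1493LT stood above H1493HT in 3 of the 14 and below it in 6. The named gene with the largest difference was LOC_Os01g36850 on chromosome 1, described as a Pong-type transposon protein, with 5.95, 6.22 and 5.38 in H1493LT and 12.75, 12.84 and 12.78 in Co27LT. The transgenic arrays were far above the wild type, by 6.94 (SE 0.24, adjusted p = 3.0e-06), and by 7.55 at high temperature. The probe set with the largest difference of all, whose gene the annotations do not settle and which was singled out after its values were seen, stood at 2.33, 1.82 and 3.69 in H1493LT and 11.47, 11.37 and 11.38 in Co27LT, a difference of 8.79 whose size is not exact because the wild-type signal was near background. Gene LOC4331398 on chromosome 3, also chosen after its values were seen, was 6.62 and 6.33 higher in its 2 probe sets.

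A pair of described enzyme genes also differed strongly. LOC_Os08g17500, described as a cinnamoyl-CoA reductase, an enzyme of the lignin branch, had 4.31, 5.91 and 5.49 in H1493LT and 10.01, 10.12 and 9.68 in Co27LT. The groups were far apart (4.70, SE 0.39, adjusted p = 0.00053), and the difference was 4.38 at high temperature. LOC_Os07g35480, described as a glucan endo-1,3-beta-glucosidase, the class of enzyme that cleaves callose-type glucans, had 1.35, 3.79 and 3.42 in H1493LT and 7.14, 7.16 and 7.50 in Co27LT (4.41, SE 0.57, adjusted p = 0.0051, and 3.39 at high temperature). Its wild-type signals were near background, so the size is not exact, and in a fit of the 6 low-temperature arrays alone its adjusted p was 0.10. The called probe set with the largest decrease, of gene LOC4333281 on chromosome 3, chosen after its values were seen, fell from 6.77, 6.55 and 6.83 in H1493LT to 0.37, 3.61 and 2.67 in Co27LT, again to background.

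**Figure D2:**
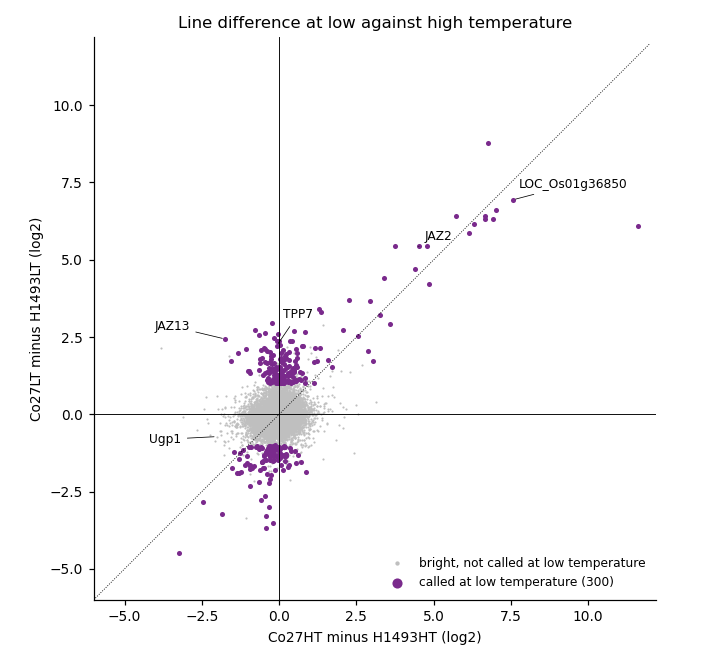
Log2 difference between the lines at low temperature (y axis, Co27LT minus H1493LT) against that at high temperature (x axis, Co27HT minus H1493HT) for bright probe sets, with the 300 called at low temperature in purple and a dotted line of equal differences. The 14 probe sets with differences of at least 4 at both temperatures lie at the upper right, and many others lie near 0 on the x axis. The median high-temperature difference was 0.08 for the 193 higher and -0.28 for the 107 lower probe sets.

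JAZ genes were repeatedly among the higher genes. JAZ proteins repress jasmonate signalling by binding MYC transcription factors, are degraded through the COI1 receptor when jasmonate is perceived, and are themselves transcribed as early jasmonate targets. Of 21 bright genes of the JAZ and jasmonate signalling list, 9 rose and none fell, and all 9 were among the 12 bright JAZ genes. The median difference of the list was 0.33, against -0.01 over all bright genes. Without probe sets that can match several transcripts (identifiers ending in _x_at or _s_at) 5 of 15 rose, and the median was 0.18. JAZ2, JAZ10, JAZ6 and JAZ4 were counted by such probe sets. JAZ2 on chromosome 7 was the strongest.

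JAZ2 had 5.46, 6.01 and 6.23 in H1493LT and 11.23, 11.36 and 11.41 in Co27LT. The transgenic arrays were all far above the wild type (5.43, SE 0.29, adjusted p = 3.9e-05), and the line difference at high temperature was 4.51, so for JAZ2 its dependence on temperature did not pass the test (0.92, adjusted p = 0.40). JAZ13 on chromosome 10 had 8.56, 8.44 and 8.80 in H1493LT and 11.14, 11.002 and 10.97 in Co27LT. It was higher in every transgenic array (2.43, SE 0.13, adjusted p = 3.7e-05), whereas at high temperature it was lower, at 6.36, 6.56 and 6.49 in Co27HT against 8.11, 8.41 and 8.12 in H1493HT (-1.74, adjusted p = 0.00045). JAZ10 had 10.43, 10.40 and 10.52 in H1493LT and 12.63, 12.57 and 12.46 in Co27LT, again without overlap (2.10, SE 0.08, adjusted p = 9.9e-06), and its second probe set gave 2.14. JAZ9 had 8.84, 8.64 and 8.69 in H1493LT and 10.16, 10.16 and 10.29 in Co27LT, with every transgenic array above every wild-type array (1.48, SE 0.10, adjusted p = 0.00015).

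The other JAZ genes that passed, listed after their values were seen, moved less. They were JAZ12 (0.82), JAZ11 (0.79), JAZ6 (0.72), JAZ8 (0.59) and JAZ4 (0.53). JAZ12 and JAZ4 had adjusted p-values of 0.020 and 0.030, which rose above 0.05, up to 0.087 and 0.12, when any 1 of the 6 low-temperature arrays was left out. JAZ8 (0.082), JAZ6 (0.056) and JAZ4 (0.10) were above 0.05 in the fit of the 6 low-temperature arrays alone. At high temperature the line differences were -0.64 for JAZ12, -0.32 for JAZ9, -0.30 for JAZ6, -0.21 for JAZ11, -0.12 for JAZ8 and 0.03 for JAZ4, all smaller in size than at low temperature. JAZ9, JAZ11 and JAZ10 are immediate neighbours on chromosome 3, and JAZ13 and JAZ12 lie on chromosome 10 with 3 genes between them. The bright JAZ1 (0.01), JAZ3 (0.18) and JAZ7 (0.16) did not pass, nor did JAZ5, whose signal was below the bright limit (1.27, adjusted p = 0.63). The receptor genes COI1A (-0.01), COI1B (-0.18) and COI2 (-0.08), the adaptor NINJA1 (-0.02) and the bHLH factor BHLH148 (1.89, adjusted p = 0.13) did not either. Of 11 bright genes of jasmonate synthesis 1 rose, AOS1, allene oxide synthase, the entry enzyme of the jasmonate branch. Its signals were 10.12, 10.17 and 10.23 in H1493LT and 10.94, 11.001 and 10.97 in Co27LT. These groups were apart (0.80, adjusted p = 0.0043), while the lipoxygenase gene LOX5 differed by 0.05 and did not pass.

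**Figure D3:**
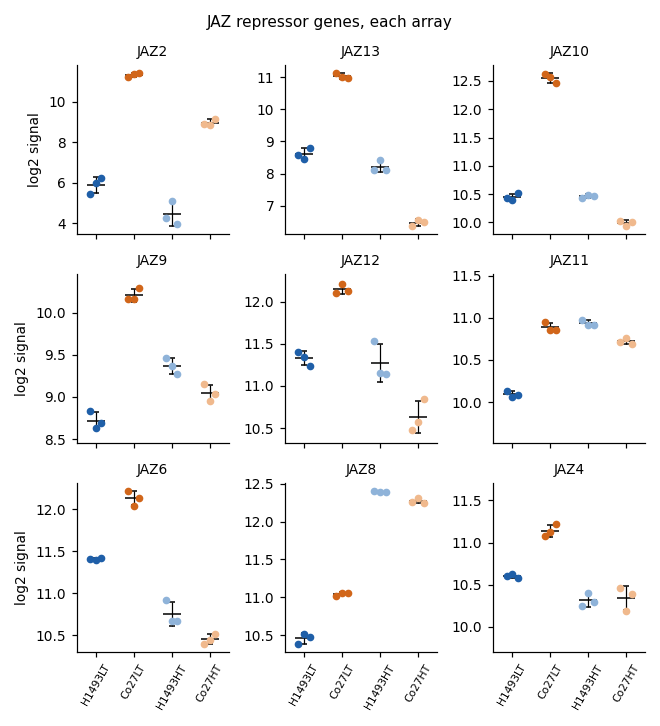
Log2 signal (y axis, not starting at 0) of the 9 JAZ genes that rose, in H1493LT, Co27LT, H1493HT and Co27HT; each point is 1 of 3 arrays, and the bars give the mean ± SD. Co27LT stands above H1493LT in every panel, by 5.43 for JAZ2 and 0.53 for JAZ4, and JAZ13 goes from 2.43 higher at low temperature to 1.74 lower at high temperature.

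Genes of the cold response moved in both directions. Of 23 bright members of the list 6 rose and 2 fell, with a median difference of 0.09. Transcription factors and trehalose phosphate phosphatases made up most of the genes that rose, and dehydrins those that fell. The sixth gene that rose was ISAP1, a stress-associated zinc finger gene listed after its value was seen (0.67, adjusted p = 0.0080, but 0.11 in the fit of the 6 low-temperature arrays alone and 0.074 after centring each array on its median). DREB1B on chromosome 9, a CBF-type activator of cold-responsive genes, had 5.78, 6.64 and 6.60 in H1493LT and 9.18, 8.91 and 8.97 in Co27LT. The line difference of 2.68 (SE 0.21, adjusted p = 0.00035) was 0.48 at high temperature. There the wild-type arrays stood between 8.24 and 8.34, well above those at low temperature, whereas the transgenic arrays, between 8.67 and 8.80, stood just below theirs. DREB1E had 5.57, 5.09 and 5.42 in H1493LT and 7.62, 7.37 and 7.72 in Co27LT, with the wild type near background and no overlap (2.21, SE 0.21, adjusted p = 0.0010). DREB1G was below the bright limit, with 1.28, 3.40 and 5.32 in H1493LT and 8.51, 8.66 and 8.62 in Co27LT. Its difference of 5.26 (SE 0.83, adjusted p = 0.015) therefore has no exact size, and the adjusted p was 0.060, 0.058, 0.059 and 0.061 without H1493LT replicate 2 and Co27LT replicates 1, 2 and 3. DREB1A (0.63, adjusted p = 0.11) did not pass.

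MYB4, a rice MYB factor known from cold tolerance and listed after its values were seen, had 9.82, 9.85 and 9.81 in H1493LT and 11.51, 11.45 and 11.36 in Co27LT. It was higher in all transgenic arrays (1.61, SE 0.10, adjusted p = 0.00010), and at high temperature it differed by -0.22. RAB16B, a dehydrin that accumulates with abscisic acid and drying, had 8.93, 8.86 and 8.95 in H1493LT and 7.89, 7.83 and 7.78 in Co27LT, and was lower in all transgenic arrays (-1.08, SE 0.08, adjusted p = 0.00023). RAB21, another dehydrin, differed by -0.89 (adjusted p = 0.0063, but 0.080 in the fit of the 6 low-temperature arrays alone), with -0.88 at high temperature. Among further bright genes of this kind, Dhn1 (0.05) and RAB16C (0.09) did not pass.

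Trehalose phosphate phosphatases remove the phosphate of trehalose 6-phosphate, a signal of sucrose status, and TPP1 and TPP7 are cold-responsive in rice. Of 5 bright genes in the list 3 rose and none fell (median 0.85, and 0.44 without probe sets ending in _x_at or _s_at). TPP7 on chromosome 9 had 9.78, 9.81 and 9.62 in H1493LT and 11.94, 11.97 and 11.95 in Co27LT, a difference of 2.22 (SE 0.11, adjusted p = 2.5e-05) against -0.08 at high temperature. TPP1 on chromosome 2 read 10.92 on each H1493LT array and 12.55, 12.65 and 12.56 in Co27LT (1.66, SE 0.17, adjusted p = 0.0013), against -0.15 at high temperature. For both genes the transgenic arrays at low temperature were the highest of all 12. TPP2 rose by 0.85 (adjusted p = 0.026), but its adjusted p went above 0.05, up to 0.11, without any 1 of the 6 arrays. TPP4 (-0.13) and TPP9 (0.04) did not pass.

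Calcium sensors and the kinases that decode calcium signals formed the largest list with repeated increases. Of 67 bright members 10 rose and 2 fell, while the median was 0.08. CPK21, a calcium-dependent protein kinase on chromosome 8, had 7.75, 7.71 and 7.63 in H1493LT and 9.97, 9.80 and 9.99 in Co27LT (2.22, SE 0.14, adjusted p = 8.2e-05). CML15, a calmodulin-like sensor on chromosome 5, had 8.07, 7.96 and 8.10 in H1493LT and 9.99, 10.27 and 10.17 in Co27LT (2.10, SE 0.17, adjusted p = 0.00044). Both were higher in every transgenic array at low temperature, and their differences at high temperature were 0.74 and 0.54. CML31 rose by 1.53 (adjusted p = 0.018), which was 0.081, 0.070, 0.068 and 0.077 without H1493LT replicates 1 and 2 and Co27LT replicates 2 and 3, and CML14 by 1.31 with an adjusted p of 0.0495, which was 0.063 to 0.17 without any 1 of the 6 arrays. The further members that passed, listed after their values were seen, were CML27 (1.21), the CBL-interacting kinase CIPK21 (1.07), CML16 (1.01), CPK4 (1.01), CML30 (0.82) and CML10 (0.74). CIPK14 (-0.57) and CIPK07 (-0.53) fell, and their adjusted p rose above 0.05, up to 0.056 and 0.064, without H1493LT replicates 1 and 2 or Co27LT replicate 3 for the former and without any array but 1 for the latter. The probe set assigned to CIPK07 is described as an mttA/Hcf106 family protein at its locus, not a kinase, so the annotations disagree. The calmodulin genes with the highest signals, with differences of 0.02 and 0.11, did not pass. The genes that rose were calmodulin-like proteins and kinases, which was not set against the makeup of the list.

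Other regulators among the higher genes were mostly single members of their lists. HSFA3, a heat stress transcription factor, had 8.71, 8.86 and 8.87 in H1493LT and 10.46, 10.62 and 10.39 in Co27LT (1.67, SE 0.11, adjusted p = 0.00015), against -0.40 at high temperature. LOC_Os08g36920, an AP2 domain protein, had 9.77, 9.68 and 9.58 in H1493LT and 11.86, 11.78 and 11.75 in Co27LT (2.12, SE 0.20, adjusted p = 0.00091). The groups of both were apart, and at high temperature LOC_Os08g36920 was lower in TGMS-Co27 (-1.08, adjusted p = 0.029). WRKY71, a WRKY factor of defence and gibberellin responses, had 11.10, 11.23 and 11.17 in H1493LT and 12.13, 12.09 and 12.16 in Co27LT (0.96, SE 0.09, adjusted p = 0.0010), and was also lower in TGMS-Co27 at high temperature (-0.80, adjusted p = 0.0048). Its second probe set gave 0.77 (adjusted p = 0.036). bZIP23, an activator of abscisic acid responses, rose by 0.95 (adjusted p = 0.0012) and the glutaredoxin GRXS5 by 1.10 (adjusted p = 0.00015), neither with a called difference at high temperature. IAA21, an Aux/IAA repressor of auxin signalling, was 0.77 higher at both temperatures (adjusted p = 0.0032 and 0.0057).

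Other increases were smaller. They were NAC5 (0.69), a stress-linked NAC factor, the MADS-box gene MADS55 (0.77) and the defence protein PBZ1 (0.91), and, of 50 bright cell wall genes, the expansin-family genes EXLA2 (0.78) and EXP5 (0.50) and the cellulose synthase CESA6 (0.54). These 6 adjusted p-values lay at 0.012 to 0.035 and rose above 0.05 on leaving out at least 5 of the 6 low-temperature arrays in turn, the highest being 0.13. Another bright probe set of EXLA2 differed by 0.49 and did not pass (adjusted p = 0.17).

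**Figure D4:**
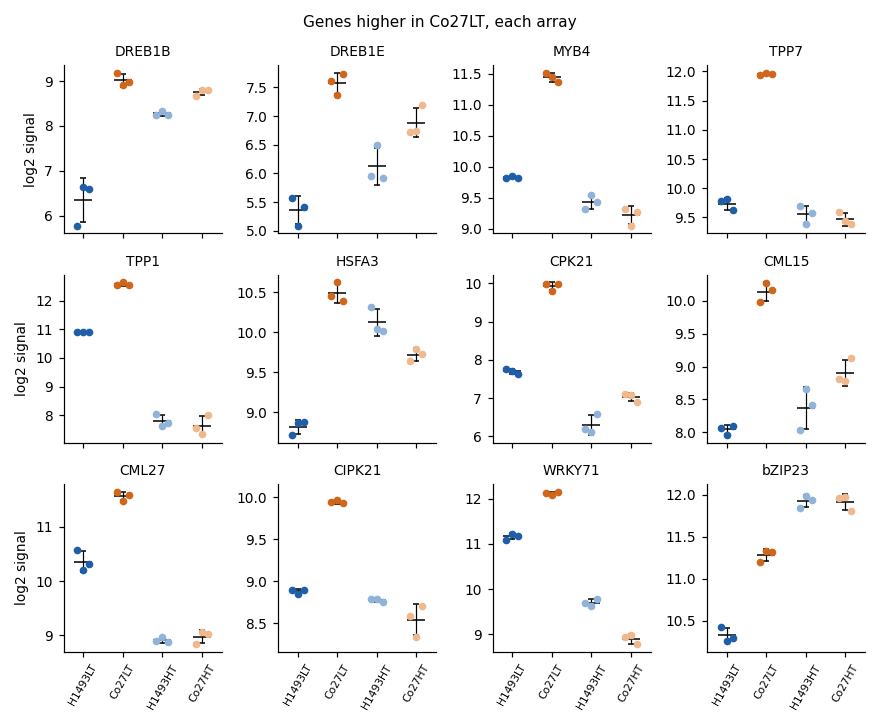
Log2 signal (y axis, not starting at 0) of 12 genes that rose in Co27LT, drawn per array for H1493LT, Co27LT, H1493HT and Co27HT, with points for the 3 arrays and bars for the mean ± SD. TPP7 and TPP1 are 2.22 and 1.66 above the wild type at low temperature and within 0.15 of it at high temperature, whereas WRKY71 goes from 0.96 above to 0.80 below.

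Among the genes lower in Co27LT were members of the anther programme. The tapetum is the anther layer that feeds the meiocytes and secretes pollen wall precursors. Of 11 bright genes of the tapetum and pollen wall list 3 fell and none rose (median -0.20, and -0.46 without probe sets ending in _x_at or _s_at). CYP703A3, a cytochrome P450 that hydroxylates fatty acids for the pollen wall, had 7.21, 7.05 and 7.53 in H1493LT and 5.75, 5.47 and 5.63 in Co27LT. All transgenic arrays were lower (-1.64, SE 0.25, adjusted p = 0.013), and at high temperature the difference was -1.10 (adjusted p = 0.061). The adjusted p at low temperature became 0.054, 0.060, 0.059 and 0.055 without H1493LT replicates 1 and 3 and Co27LT replicates 2 and 3. TDR, a bHLH factor needed for tapetum degeneration, had 8.33, 8.22 and 7.96 in H1493LT and 6.93, 7.22 and 7.17 in Co27LT, again without overlap (-1.06, SE 0.17, adjusted p = 0.016), against 0.15 at high temperature. Without H1493LT replicates 1 and 2 and Co27LT replicates 1 and 3 its adjusted p was 0.075, 0.071, 0.069 and 0.057. BHLH142, a bHLH factor of the same programme, fell by 0.50 (adjusted p = 0.048, up to 0.17 with 1 array left out, and above 0.05 without any but Co27LT replicate 2).

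Of the cell type markers chosen for this tissue, 5 of 8 tapetum genes were matched, and their summed signal ran from 10.96 to 11.08 in H1493LT and from 10.60 to 10.68 in Co27LT. The defining tapetum gene C6 was detected on 4 of the 12 arrays, and its difference of 1.05 did not pass (adjusted p = 0.70). For meiocytes 5 of 9 markers were matched, none passed, and their sums were 13.66 to 13.71 and 13.57 to 13.60, slightly lower in Co27LT without overlap. Stamen and lodicule markers summed to at least 14.08 in H1493LT and at most 14.01 in Co27LT. The sums of lemma and palea markers overlapped between lines (14.99 to 15.05 and 15.03 to 15.05), as did those of carpel markers, of which MADS21 was detected on no array. Of the mature pollen markers, 0 of 3 were matched. Green leaf markers, 4 of 5 matched, summed to 14.44 to 14.52 in H1493LT and 13.91 to 13.94 in Co27LT. The matched tapetum markers include TDR and CYP703A3 and the green leaf markers CAB2R and PORB, so these sums hold some of the same probe sets. Linear signals were added, so the brightest marker weighs most, namely GAMYB for tapetum, MEL1 for meiocytes and CAB2R for green leaf. None of these passed (-0.20, -0.16 and -0.55, adjusted p = 0.54, 0.61 and 0.080). The tapetum and green leaf sums moved with the genes described here, and the part of tissue makeup in those differences was not tested. All 19 genes of the meiosis list were bright and none passed the test in either direction, with MEL1, an argonaute of the germ line, at -0.16 and SPO11-4, which is related to the enzyme that starts meiotic recombination, at 0.02.

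Genes of photosynthesis and chlorophyll were on the lower side. Of 13 bright members 4 fell and none rose, and the median was -0.54, or -0.16 over the 9 genes left without probe sets ending in _x_at or _s_at, of which 3 fell. LHCP, a chlorophyll a/b binding protein, had 13.41, 13.32 and 13.39 in H1493LT and 12.58, 12.47 and 12.39 in Co27LT (-0.90, SE 0.11, adjusted p = 0.0045), and -0.997 at high temperature. PSAH, a subunit of photosystem I, fell by 0.75 (adjusted p = 0.0029, and 0.055 in a fit of the 6 low-temperature arrays alone). PORA, which converts protochlorophyllide in light, differed by -0.60 (adjusted p = 0.011, and 0.051 without H1493LT replicate 2) and by -1.33 at high temperature, and PORB by -0.65 (adjusted p = 0.048, up to 0.16 without any 1 array). CAB2R did not pass in its brightest probe set (-0.55, adjusted p = 0.080), while another of its probe sets differed by -1.06. Outside the list, LOC_Os12g19470, a Rubisco small chain, had 9.99, 9.92 and 9.85 in H1493LT and 8.73, 8.75 and 8.52 in Co27LT (-1.25, SE 0.17, adjusted p = 0.0071). These groups did not overlap, and the probe set was detected on 6 of the 12 arrays.

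Clock genes were also on the lower side. The hour of harvest is not given for either line, and its part in these or the photosynthesis differences was not tested. Of 11 bright members of the clock and photoperiod list 3 fell and none rose (median -0.11, and -0.16 without probe sets ending in _x_at or _s_at). GI, the large plant-specific clock protein that also acts on flowering time, had 10.51, 10.52 and 10.54 in H1493LT and 9.84, 9.61 and 9.68 in Co27LT. The wild type was above the transgenic line in every array (-0.81, SE 0.09, adjusted p = 0.0028), against 0.25 at high temperature, and the fit of the 6 low-temperature arrays alone gave an adjusted p of 0.056. PRR95, a pseudo-response regulator, had 12.26, 12.28 and 12.26 in H1493LT and 11.57, 11.60 and 11.61 in Co27LT (-0.67, SE 0.08, adjusted p = 0.0029). PRR73, another, fell by 0.85 (adjusted p = 0.012, becoming 0.056, 0.051 and 0.054 without H1493LT replicates 1 and 2 and Co27LT replicate 3), and its second probe set differed by -1.03. CCA1, the morning MYB factor of the clock, differed by -0.03 and did not pass at low temperature, but differed by -1.17 at high temperature.

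The remaining genes that fell belonged to several functions. CHT7, a chitinase, had 6.19, 6.75 and 6.17 in H1493LT and 4.14, 4.12 and 2.89 in Co27LT, the latter near background. The groups were apart (-2.66, SE 0.32, adjusted p = 0.0033), but in a fit of the 6 low-temperature arrays alone the adjusted p was 0.10. LOC_Os08g20730, described as a peroxidase, had 10.74, 10.68 and 10.70 in H1493LT and 9.42, 9.54 and 9.23 in Co27LT, lower in all transgenic arrays (-1.31, SE 0.09, adjusted p = 0.00021), with 0.08 at high temperature. Another bright probe set of the same gene differed by 0.28 and did not pass (adjusted p = 0.61), so the probe sets disagree. LOC_Os01g01660, described as an isoflavone reductase, had 10.59, 10.45 and 10.67 in H1493LT and 8.89, 8.97 and 8.93 in Co27LT (-1.64, SE 0.14, adjusted p = 0.00059), with 0.31 at high temperature. Of similar size were the differences of the galactosyltransferase LOC_Os05g35266 (-1.33) and the zinc finger gene C3H47 (-1.65, adjusted p = 0.019, between 0.058 and 0.078 without any 1 of the H1493LT arrays or Co27LT replicate 1). The fructose-1,6-bisphosphatase LOC_Os04g16680 differed by -1.15 at low and -1.17 at high temperature, with an adjusted p of 0.045 at low temperature that rose above 0.05, up to 0.15, without any 1 of the 6 arrays. The flavonol synthase-like LOC_Os08g37456 (-1.20, adjusted p = 0.020) was at 0.084, 0.082 and 0.052 without H1493LT replicates 1 and 3 and Co27LT replicate 3, and LOC_Os10g24050, described as a ribosome inactivating protein (-1.28, adjusted p = 0.014), at 0.065 and 0.064 without H1493LT replicates 1 and 2.

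In each of the RNA-related lists 1 gene was lower and none higher, against 1.81% lower over all bright genes. Counts this small cannot be set apart from that share. U2AF35A, the small U2AF subunit that reads the end of an intron, had 10.65, 10.64 and 10.43 in H1493LT and 9.65, 9.72 and 9.63 in Co27LT (-0.90, SE 0.10, adjusted p = 0.0028), and it was the 1 of 11 splicing genes that fell. Its difference was -1.74 at high temperature, so the lines were closer at low temperature, and it was detected on 9 of the 12 arrays. AGO3, an argonaute, was the 1 of 29 bright RNA silencing genes that fell, from 7.11, 7.02 and 6.999 in H1493LT to 5.79, 6.20 and 5.52 in Co27LT. These did not overlap (-1.21, SE 0.21, adjusted p = 0.024), but the adjusted p rose above 0.05, up to 0.098, without any low-temperature array but Co27LT replicate 2. Of 18 bright aquaporins, which carry water across membranes, 3 fell, namely PIP2;4 (-0.82), PIP2;2 (-0.74) and PIP1;2 (-0.47), with adjusted p-values of 0.012, 0.010 and 0.034. Each rose above 0.05 without H1493LT replicate 1 (0.060, 0.051 and 0.092), and PIP2;4 also without H1493LT replicate 3 (0.053) and Co27LT replicates 2 (0.054) and 3 (0.059), and PIP1;2 without any 1 array (up to 0.14). HSFA2C, a heat stress factor, fell by 0.55 (adjusted p = 0.010, and 0.050 and 0.052 without H1493LT replicates 1 and 2), while another of its probe sets differed by 0.01.

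**Figure D5:**
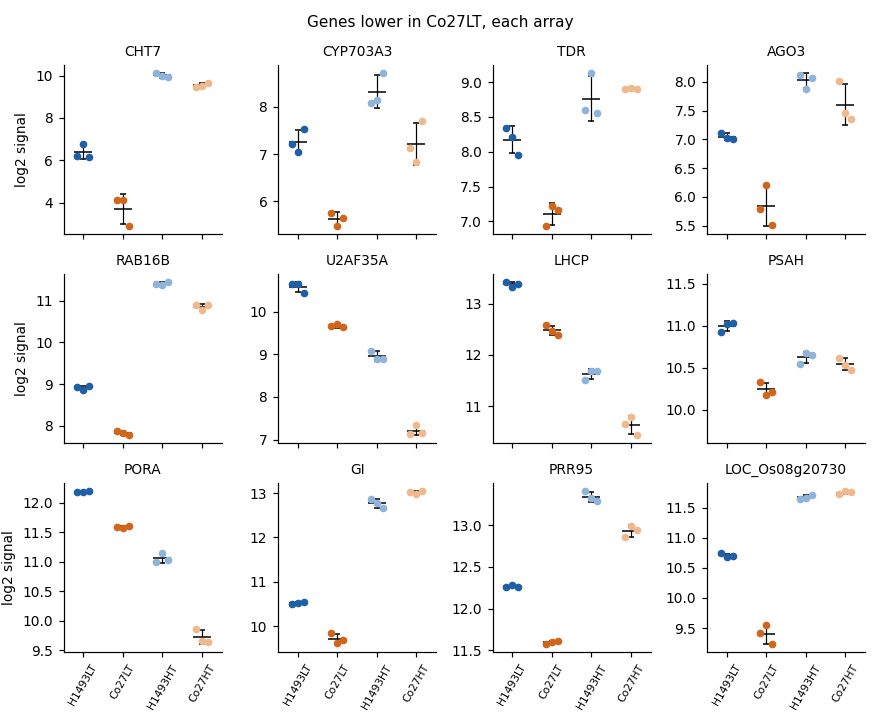
Log2 signal (y axis, not starting at 0) of 12 genes that fell in Co27LT, drawn per array for H1493LT, Co27LT, H1493HT and Co27HT, with points for the 3 arrays and bars for the mean ± SD. The line difference of GI is -0.81 at low and 0.25 at high temperature, that of TDR -1.06 and 0.15, for which the change between temperatures did not pass the test, and that of LHCP -0.90 and -0.997.

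Some lists that could have moved with temperature or fertility showed no gene past the test. These were heat shock proteins (11 bright), AP2/ERF factors other than DREB1 (5, a list that does not hold the AP2 domain gene LOC_Os08g36920 described above), gibberellin (10), ethylene (9), lipid transfer (2) and nitrogen and amino acid genes (9). The abundant heat shock proteins HSP81-2 and HSP81-3 both differed by 0.02. In the other lists few genes passed. They were 1 higher of 3 WRKY factors, 1 higher of 5 NAC factors, 1 lower of 10 sugar transport genes, 1 higher of 47 auxin genes, 1 higher of 23 floral identity genes, 2 higher of 52 cell cycle genes, 1 higher of 18 abscisic acid genes and 1 higher of 18 iron genes. Of 56 redox genes 2 rose and 2 fell, of 18 heat stress factors 1 rose and 1 fell, and of 14 defence genes 1 rose and 1 fell. The background over all bright genes was 2.0% higher and 1.81% lower. A test that was not passed does not show equal levels in these lists.

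The change of the line difference between temperatures was tested directly. At high temperature 196 bright probe sets were called (0.787%), of which 51 were higher (0.205%) and 145 lower (0.583%) in TGMS-Co27, the opposite balance to that at low temperature. The dependence on temperature was called for 277 (1.11%), with 192 (0.771%) more positive at low temperature and 85 (0.341%) more negative. Genes named here were chosen by their difference at low temperature, which is 1 term of this value, so its sign among them is largely set by that choice and it is given per gene as a description. For JAZ13 this value was 4.18 (adjusted p = 0.00012), for LOC_Os08g36920 3.20 (0.0017), for JAZ10 2.58 (0.00012), for TPP7 2.29 (0.00059), for HSFA3 2.08 (0.00098) and for MYB4 1.83 (0.0011). For DREB1E (1.44, adjusted p = 0.067), DREB1G (5.42, adjusted p = 0.080), TDR (-1.21, adjusted p = 0.061) and CHT7 (-2.19, adjusted p = 0.066) it did not pass, so a difference between temperatures was not shown for them.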

How the data were processed

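Florets of both lines were hybridised to rice genome arrays, 3 arrays in each of 4 groups. The deposited values are log2 signals that the authors made with MAS5 (named in the submitters' processing notes), with a detection call per probe set. The calls were read only to count arrays on which a probe set was detected. Groups came from the sample labels. With R 4.3.3, limma 3.58.1 fitted 4 group means to the 12 arrays as deposited (57258 probe sets, 123 control probe sets left out), so the spread is shared among groups, and p-values were adjusted by Benjamini-Hochberg over all probe sets. MAS5 signals are noisy at low level, hence the limit of 6 on the mean. No depth exists for arrays; their number limits the precision. Gene names came from the platform annotation, RefSeq genes of ASM3414082v1 (names and neighbours only) and locus descriptions in the study's additional tables: 22436 probe sets had 1 gene, 95 several and 34727 none.

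The members, gene lists and tests were chosen with earlier results of these data known. Named were the 12 genes per direction with the largest called difference and a symbol or description, up to 4 passing members of each of 31 lists and 2 that did not pass, those of highest signal, and Ugp1 and UGP2. Other names were chosen after their values were seen. Arrays with known changes were simulated in the same design. The adjusted p passed in 70% of probe sets changed by 1 (log2), 88% by 1.5, 96% by 2 and 100% by 3. These shares do not apply the size and signal limits of a call. With those limits, 0 of 57058 unchanged probe sets were called. Alternatives were quantile normalization, median centring, a floor at 5, other signal filters, limma-trend, only the 6 arrays compared, a replicate block and leaving out each array. No sequence was used.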

Additional observations from a re-analysis of the deposited data

Results flagged for a closer look

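In 36 probe sets that stand for the genes named, the line difference at low temperature differed from that at high temperature by the test of the difference itself (limma, adjusted p below 0.05), given here as low minus high on the log2 scale. Each temperature was one site and season, so these cannot be told apart. Most of the genes were chosen by their difference at low temperature, so the sign of these values is no separate evidence. Positive values among signalling genes were 4.18 for JAZ13, 2.62 and 2.58 for the 2 probe sets of JAZ10, 1.80 for JAZ9, 1.46 for JAZ12, 1.02 for JAZ6, 1.01 for JAZ11, 0.705 for JAZ8, 2.20 for DREB1B, 2.29 for TPP7, 1.82 for TPP1, 1.49 for CPK21, 1.56 for CML15, 1.30 for CIPK21, 1.15 for CML27 and 1.0 for CML16. Among transcription factors they were 3.20 for LOC_Os08g36920, 2.08 for HSFA3, 1.83 for MYB4, 1.76 for WRKY71, 0.963 for bZIP23 and 1.15 for CCA1. The value of CCA1 came from high temperature, where the lines differed by -1.17, against -0.03 at low temperature. Glutaredoxins gave 1.22 for GRXS5 and 0.945 for GRXS9. In Ugp1 (1.29), U2AF35A (0.841), PORA (0.732) and CAB2R (1.37) the positive value came with a larger decrease at high temperature. Another bright probe set of CAB2R gave -0.08 (adjusted p = 0.88), so its dependence on temperature rests on 1 probe set. Negative values were found for LOC_Os01g01660 (-1.95), LOC_Os10g24050 (-1.52), LOC_Os08g20730 (-1.39), LOC_Os05g35266 (-1.30), HSFA2C (-1.15), GI (-1.06), GSTZ5 (-0.901) and PSAH (-0.669). A dimmer probe set of HSFA2C gave 1.81 and did not pass (adjusted p = 0.29), and a second bright one of LOC_Os08g20730 gave -0.002.

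Several of these lay near the threshold. Leaving out each of the 12 arrays in turn took the adjusted p above 0.05 in 12 cases for PSAH and U2AF35A, 11 for PORA and LOC_Os10g24050, 10 for GRXS9 and JAZ8, 9 for CML15, 6 for GSTZ5, 3 for CML27 and 2 for bZIP23, and in 0 cases for the others.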

How the results depend on the processing

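The counts of 193 higher, 107 lower and 277 temperature-dependent probe sets moved with the rule. With an unadjusted p and a 2-fold change, 164 were lower and 640 temperature-dependent. With only the 6 arrays compared, 62 were lower. The temperature-dependent count was 429 with signals floored at 5 and 471 with limma-trend and robust moderation. Leaving out 1 array at a time gave 155 to 187 higher, 86 to 113 lower and 180 to 288 temperature-dependent, the 180 without H1493LT replicate 2.

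Replicate numbers are shared between groups but do not pair the samples: deviations of same-numbered H1493LT and Co27LT arrays correlated at 0.03, -0.02 and -0.04. With a replicate block, 169 were higher, 88 lower and 150 temperature-dependent, and 256 of the 257 called were among the 300.

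Of 65 named probe sets passing by adjusted p alone, 63 still passed after quantile normalization, 44 after median centring and 42 with the block. With only the 6 arrays 35 still passed, and 37 to 47 with a low-temperature array left out. None changed direction. Centring moved the median temperature dependence to 0.10 and left the low-temperature median at -0.01. The ranges of the lists that lead the text were 5 to 10 higher for JAZ and jasmonate signalling, 5 to 9 for cold and 8 to 15 for calcium, and 1 to 7 lower for photosynthesis and 0 to 3 for tapetum. Signals under 6 limit exact sizes.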
